A study of Mus musculus with 10 samples.

Results

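The genes described here are 10 regulators and markers of extraembryonic and lateral mesoderm, *Bmp4*, *Msx1*, *Msx2*, *Hand1*, *Foxf1*, *Tbx3*, *Tbx20*, *Isl1*, *Mef2c* and *Pmp22*, taken by symbol from a table of 20974 genes. All 10 passed the filter on low values that left 15603 genes for testing. Their mRNA was measured in 5 *Rreb1*-/- and 5 *Rreb1*+/+ mouse embryos at embryonic day (E) 7.5, each sequenced as a separate library. Values are normalized counts, that is reads per gene divided by 1 scaling factor per embryo, so a level can be compared between embryos but not between genes of different length.

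The mutants carried a CRISPR deletion in exon 6 of *Rreb1*, whose zinc finger protein is a transcription factor known to act with SMADs and after RAS signalling. The wild-type embryos came from the same kind of *Rreb1*+/- intercross, and nothing else was given to either genotype. The strain is labelled CD1, and the colony was kept on a mixed outbred background, so embryos of 1 genotype were not genetically identical. The deletion was made in zygotes with pairs of guides, and which founder line these embryos came from, and from how many litters, is not stated in the sources used here. The parietal endoderm had been removed from every embryo for genotyping, and all other tissues of the conceptus were pooled in 1 RNA sample, so that fewer cells of a type and less RNA per cell cannot be told apart.

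During gastrulation, cells that leave the posterior primitive streak move into the extraembryonic region and form the mesoderm of the amnion, allantois, chorion and yolk sac. Cells that leave slightly later form the lateral plate and the heart fields. BMP4, secreted first by the extraembryonic ectoderm and then by the extraembryonic mesoderm itself, signals through SMAD1, SMAD5 and SMAD9 to sustain both fates, and HAND1, FOXF1, the MSX and T-box proteins, ISL1 and MEF2C are transcription factors of the cells that respond.

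The libraries held 31467767 to 35786876 counted reads, and the 10 genes were covered by 101 reads (*Mef2c*) to 6985 reads (*Hand1*) per embryo. *Rreb1* itself was at 3988 to 5715 normalized counts in *Rreb1*-/- embryos and 2365 to 2924 in *Rreb1*+/+ embryos. These counts cover the whole gene, including exons outside the deletion, and so do not check the genotype. The first principal component of all tested genes (37.0% of the variance) separated replicates 5 and 6 of both genotypes from replicates 2 to 4, a split that no label explains and that was known from these same data. Within replicates 2 to 4 it also set the mutants apart from the wild-type embryos, with scores of −47.5 to −43.7 in *Rreb1*-/- and −6.77 to −3.64 in *Rreb1*+/+ embryos, against 27.8 to 33.9 in *Rreb1*-/- and 44.5 to 48.2 in *Rreb1*+/+ embryos of replicates 5 and 6. Summed Y-linked counts were at 5849 to 9171 in *Rreb1*-/- replicates 3 to 6, at 2.12 in *Rreb1*-/- replicate 2 and at no more than 3.82 in the *Rreb1*+/+ embryos, so that sex and genotype largely coincided. When the Y-linked sum entered the fit, 0 of the 10 genes were called, with 0.532% of all genes called higher and 0.154% lower in *Rreb1*-/- embryos. That fit moved the log2 fold change to −1.14 for *Mef2c*, −0.63 for *Pmp22*, −0.52 for *Hand1*, −0.46 for *Isl1*, −0.23 for *Foxf1*, 0.55 for *Msx2*, 0.17 for *Tbx20*, 0.12 for *Tbx3*, 0.07 for *Msx1* and 0.01 for *Bmp4* (values without it are given with each gene). Among the mutants only replicate 2 had a Y-linked sum as low as the wild-type embryos. The genotype estimates of that fit therefore rest largely on this embryo, set against wild-type embryos of both replicate sets.

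None of the 10 genes was called different between the genotypes over all embryos (limma, Benjamini-Hochberg adjusted p under 0.05), where 4.26% of all tested genes were called, 3.11% as higher and 1.15% as lower in *Rreb1*-/- embryos. Called by edgeR's quasi-likelihood test were 0 of the 10, where 3.24% of all genes were called higher and 1.08% lower, and by DESeq2 0, where 5.06% were called higher and 2.71% lower. With the replicate number as a block 0 were called (4.59% of all genes higher and 2.28% lower), and with the replicate set as a covariate 0 (4.83% and 2.44%). At an unadjusted p under 0.05, 2 of the 10 (*Msx2* and *Bmp4*) passed, against 18.0% of all genes. The values of the 2 genotypes lay apart without overlap for 0 of the 10, against 6.70% of all genes. Estimates were positive for *Msx2*, *Bmp4*, *Msx1* and *Tbx20* and negative for the other 6, and their median was −0.01 on the log2 scale, against −0.02 over all genes. The values lay further apart among the mutants than among the wild-type embryos, and for several genes the mutants of replicates 2 to 4 were on the other side of their wild-type counterparts from the mutants of replicates 5 and 6.

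**Figure D1:**
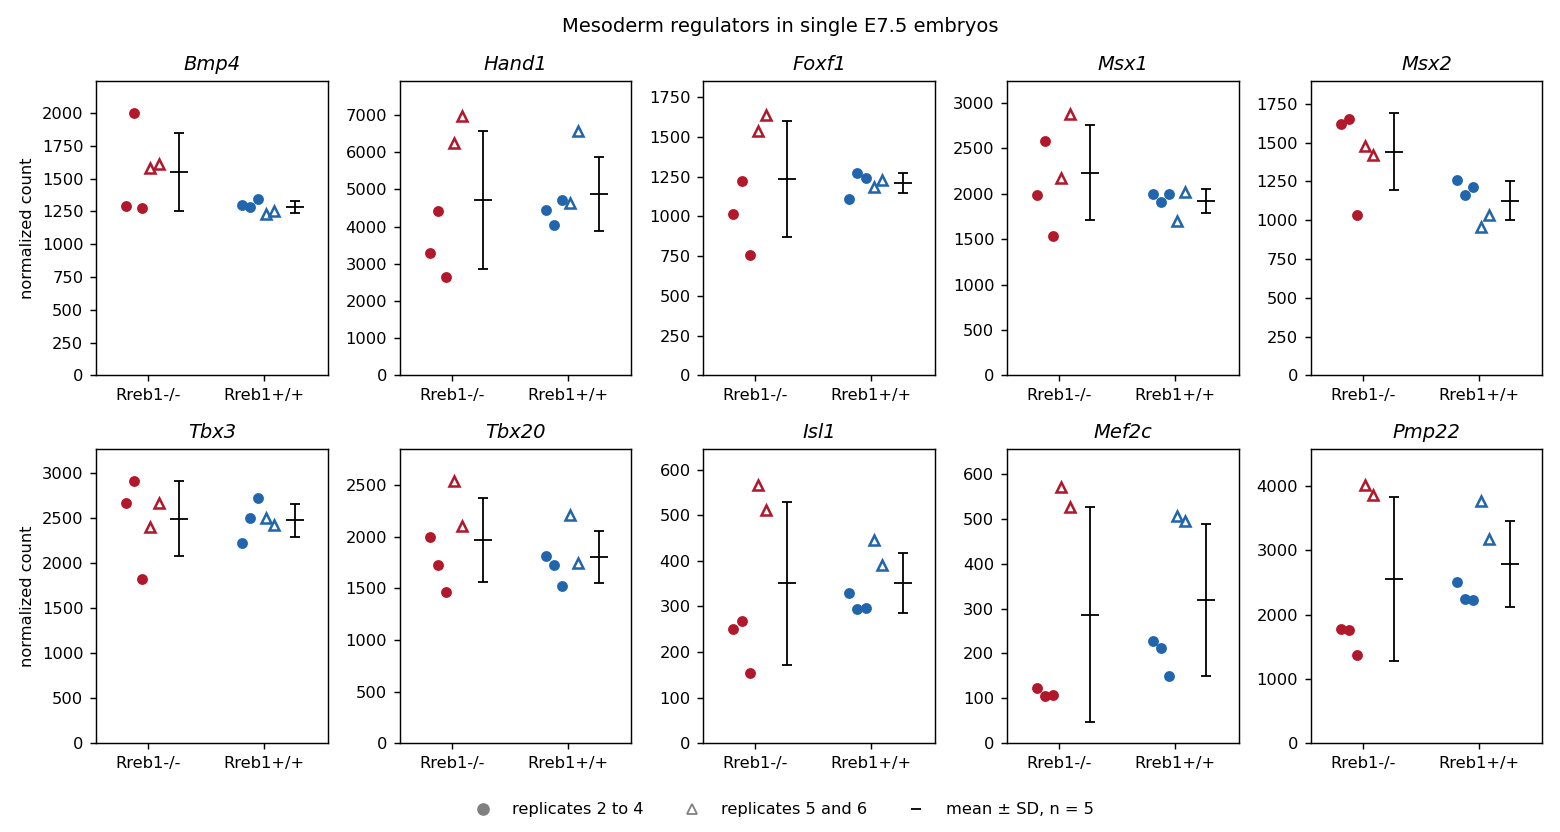
Normalized counts of the 10 genes (vertical axes from 0) in each *Rreb1*-/- embryo (red, left) and *Rreb1*+/+ embryo (blue, right), with replicates 2 to 4 as filled circles, replicates 5 and 6 as open triangles, and the mean ± SD of 5 embryos as a black bar. For *Isl1*, *Mef2c* and *Pmp22* the triangles lie above the circles in both genotypes, and the mutants fall on both sides of the wild-type embryos.

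*Bmp4*, the ligand of the group, was at 1292, 2002, 1278.5, 1581 and 1612 normalized counts in *Rreb1*-/- replicates 2 to 6, against 1300.02, 1288, 1344, 1234 and 1250.05 in the *Rreb1*+/+ embryos of the same numbers. Mutant replicates 3, 5 and 6 were above every wild-type embryo, while mutant replicates 2 and 4 lay within the wild-type range. *Rreb1*-/- embryos averaged 1553 ± 296 and *Rreb1*+/+ embryos 1283 ± 43.5 (SD, n = 5 each). The log2 fold change, 0.26 ± 0.11 (SE), did not pass (limma adjusted p = 0.264, exact two-sided permutation p = 0.0873). When the Y-linked sum entered the fit, the estimate was 0.01, a value that rests largely on mutant replicate 2. The annotation places 89 exonic bases of *Bmp4* under exons of Gm15217 on the opposite strand, and whether the counting used strand is not given in the sources used here.

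*Msx2* and *Msx1* encode homeobox repressors and are known targets of BMP signalling. *Msx2* was at 1621, 1649, 1035, 1480.4 and 1421 in *Rreb1*-/- replicates 2 to 6, against 1261, 1163, 1213, 958 and 1034 in *Rreb1*+/+ replicates 2 to 6. Every mutant other than replicate 4 was above every wild-type embryo. Means (± SD, n = 5 each) were 1441 ± 246 in *Rreb1*-/- and 1126 ± 126 in *Rreb1*+/+ embryos, the log2 fold change was 0.34 ± 0.13 (SE), and its limma adjusted p was 0.187 (exact two-sided permutation p = 0.0397, where the smallest possible is 0.00794). Without *Rreb1*-/- replicate 4 the log2 fold change was 0.46 ± 0.10, *Msx2* was called higher (limma adjusted p = 0.0289, where 2.37% of all genes were called higher) and its values did not overlap between genotypes, as for 8.04% of all genes. Over all 24 alternatives the *Msx2* estimate stayed positive, from 0.21 to 0.55, and was called in 1 of them.

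*Msx1* was at 1984, 2575, 1530.2, 2172 and 2877 in *Rreb1*-/- embryos, against 1992, 1908, 1995, 1699.8 and 2019.7 in *Rreb1*+/+ embryos. The mutants spanned more than the wild-type range in both directions, with replicate 4 the lowest and replicates 3 and 6 the highest. The log2 fold change was 0.18 ± 0.15 (SE, n = 5 each, limma adjusted p = 0.559), with a 95% interval of −0.14 to 0.50.

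*Hand1*, a basic helix-loop-helix factor needed for extraembryonic mesoderm, heart and trophoblast giant cells, had 3298, 4420.4, 2652, 6250.4 and 6975 normalized counts in *Rreb1*-/- replicates 2 to 6, against 4432, 4041, 4703, 4628 and 6579.96 in *Rreb1*+/+ embryos. The mutants held both the 2 lowest and the highest of the 10 values. *Foxf1*, a forkhead factor of extraembryonic and lateral plate mesoderm, had 1016, 1223, 755, 1535 and 1638 in *Rreb1*-/- embryos, against 1111, 1275, 1243, 1183 and 1230.3 in *Rreb1*+/+ embryos. Mutant replicates 5 and 6 were above all 5 wild-type embryos, mutant replicates 2 and 4 below all 5, and mutant replicate 3 among them. The log2 fold change was −0.12 ± 0.25 for *Hand1* (SE, limma adjusted p = 0.845) and −0.02 ± 0.18 for *Foxf1* (SE, limma adjusted p = 0.963), with 95% intervals of −0.67 to 0.42 and −0.42 to 0.37. Without mutant replicate 4 both estimates were positive, 0.06 for *Hand1* and 0.14 for *Foxf1*. *Foxf1* shares 98 exonic bases with a miRNA gene, Gm27530, on the other strand.

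Neither T-box factor passed the test. *Tbx3*, known from limb, heart and extraembryonic tissues, was at 2666, 2917, 1823, 2404 and 2669 in *Rreb1*-/- embryos, against 2225, 2506, 2721, 2503 and 2420.03 in *Rreb1*+/+ embryos. *Tbx20*, a T-box factor of cardiac mesoderm, was at 2002, 1730.1, 1462, 2537 and 2099.8 in *Rreb1*-/- embryos, against 1818, 1727, 1526, 2208 and 1749 in *Rreb1*+/+ embryos. For both genes mutant replicate 4 was the lowest of all 10 embryos and the other mutants overlapped the wild-type embryos. The log2 fold change of *Tbx3* was −0.00 ± 0.11 (SE, limma adjusted p = 0.994), its 95% interval reached from −0.26 to 0.25, and its sign changed in 11 of 24 alternatives. That of *Tbx20* was 0.11 ± 0.14 (SE, limma adjusted p = 0.734), with an interval of −0.20 to 0.42. *Tbx3* has 115 exonic bases under the antisense gene Tbx3os1.

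*Isl1*, a LIM homeobox factor of second heart field progenitors, was at 251, 267, 155, 566 and 512 in *Rreb1*-/- replicates 2 to 6, against 330.04, 295, 297, 447 and 389.99 in *Rreb1*+/+ embryos. *Mef2c*, a MADS-box factor of the heart and vascular endothelium, was at 123, 105, 107, 569.7 and 527 in *Rreb1*-/- embryos, against 227, 213, 149.9, 507 and 495 in *Rreb1*+/+ embryos. *Pmp22*, a membrane glycoprotein best known from peripheral myelin, was at 1771, 1768, 1372, 4022 and 3851 in *Rreb1*-/- embryos, against 2512, 2237, 2229, 3759.7 and 3175 in *Rreb1*+/+ embryos. In all 3 genes the ranking of the embryos was alike, from the mutants of replicates 2 to 4 at the bottom, through the wild-type embryos of replicates 2 to 4 and then those of replicates 5 and 6, to the mutants of replicates 5 and 6 at the top. Over all embryos these opposite differences left log2 fold changes of −0.15 ± 0.32 for *Isl1*, −0.42 ± 0.56 for *Mef2c* and −0.23 ± 0.30 for *Pmp22* (SE, n = 5 each), with limma adjusted p-values of 0.853, 0.743 and 0.732.

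Among replicates 2 to 4, the mutants were below the wild-type embryos without overlap for 3 of the 10 genes (*Isl1*, *Mef2c* and *Pmp22*), against 11.0% of all genes. Among replicates 5 and 6, the mutants were above without overlap for 7 of the 10, all but *Hand1*, *Tbx3* and *Tbx20*, against 21.1% of all genes. *Isl1*, *Mef2c* and *Pmp22* showed both, which held for 0.904% of all genes. The estimate was negative in replicates 2 to 4 and positive in replicates 5 and 6 for 6 of the 10 (*Hand1*, *Foxf1*, *Tbx3*, *Isl1*, *Mef2c* and *Pmp22*), against 17.7% of all genes. The median log2 fold change of the 10 was −0.17 in replicates 2 to 4 and 0.31 in replicates 5 and 6, with all genes at −0.00 and −0.01.

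**Figure D2:**
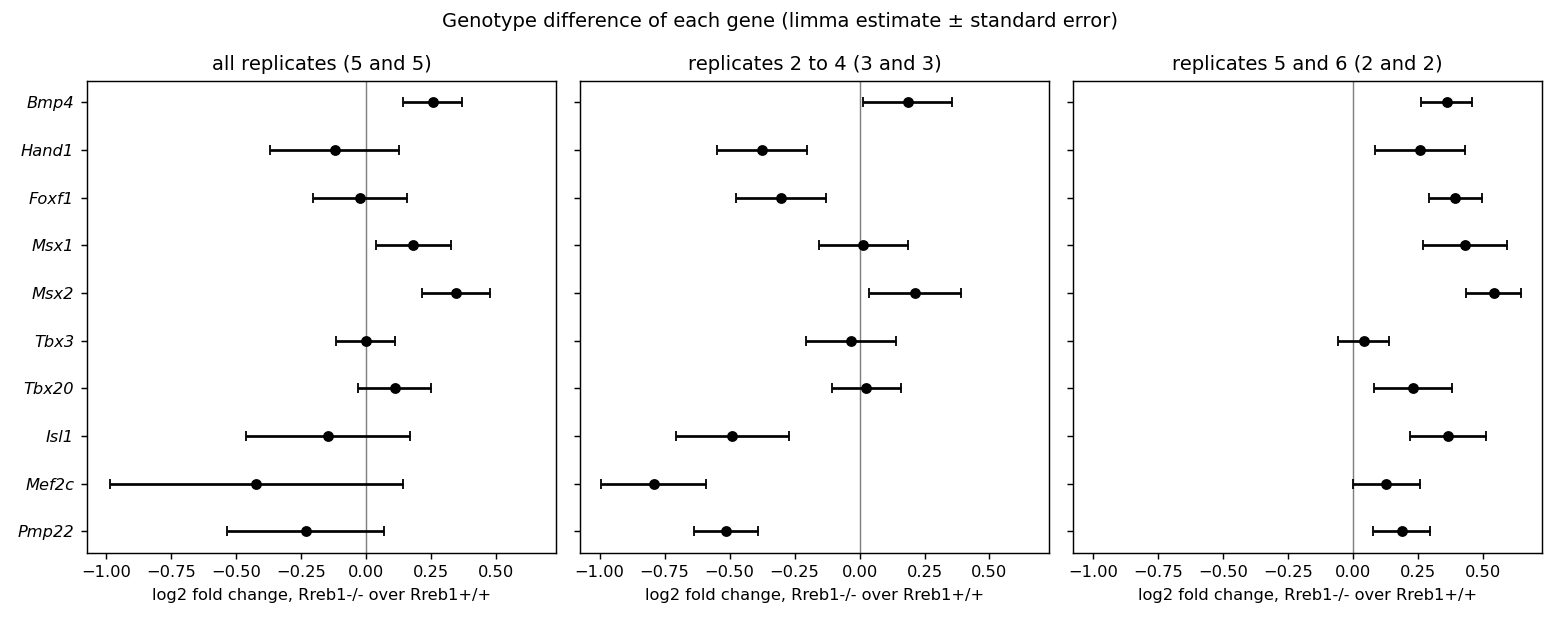
Log2 fold change (*Rreb1*-/- over *Rreb1*+/+) with its standard error for each gene in all embryos (left), in replicates 2 to 4 (middle) and in replicates 5 and 6 (right), each from its own limma fit. *Isl1*, *Mef2c* and *Pmp22* lie at −0.49, −0.79 and −0.51 in the middle panel and at 0.37, 0.13 and 0.19 in the right panel, and *Msx2* and *Bmp4* are positive in all 3 panels.

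Within replicates 2 to 4 fitted alone, the log2 fold change was −0.79 ± 0.20 for *Mef2c* (SE, limma adjusted p = 0.0830), −0.51 ± 0.12 for *Pmp22* (SE, limma adjusted p = 0.0679) and −0.49 ± 0.22 for *Isl1* (SE, limma adjusted p = 0.304), so that 0 of the 10 genes were called where 1.41% of all genes were called lower and 2.18% higher. The same contrast taken from the fit over all 10 embryos, which shares their spread and was added after the values were seen, called *Mef2c* (limma adjusted p = 0.0220) and *Pmp22* (limma adjusted p = 0.0285) lower, where 2.52% of all genes were called lower and 3.16% higher. Within replicates 5 and 6 fitted alone, *Msx2* (0.54 ± 0.11, SE, limma adjusted p = 0.111) and *Msx1* (0.43 ± 0.16, SE, limma adjusted p = 0.397) had the highest estimates of the group and 0 of the 10 were called, where 0.134% of all genes were called lower and 0.529% higher. The fit over all 10 embryos also called 0 of the 10 in that set, with 0.179% lower and 1.06% higher among all genes. A comparison of 3 embryos against 3 cannot give an exact permutation p under 0.1.

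The difference between the 2 genotype effects was tested as an interaction of genotype with replicate set. It was positive for 10 of the 10 genes, against 49.9% of all genes, and was not called for any of them (limma, 0.0449% of all genes called). It was positive for 9 of the 10 when *Rreb1*-/- replicate 4 or 6 was left out, *Tbx3* then being at −0.13 or −0.0012, and for 10 when any other embryo was left out. The largest were *Mef2c* at 0.92 ± 0.26 (SE, limma adjusted p = 0.520), *Isl1* at 0.86 ± 0.30 (limma adjusted p = 0.747), *Pmp22* at 0.70 ± 0.18 (limma adjusted p = 0.382), *Foxf1* at 0.70 ± 0.24 (limma adjusted p = 0.700) and *Hand1* at 0.63 ± 0.28 (limma adjusted p = 0.933) on the log2 scale. These 5 had an unadjusted p under 0.05, as 5.35% of all genes did, and edgeR called 0 of the 10. *Tbx3* had the smallest, 0.07 ± 0.25. Because the 10 genes follow each other across embryos, their signs are not independent of one another.

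Levels also differed between the sets within a genotype. Replicates 5 and 6 were above replicates 2 to 4 without overlap for 6 of the 10 genes in *Rreb1*-/- embryos (*Hand1*, *Foxf1*, *Tbx20*, *Isl1*, *Mef2c* and *Pmp22*), against 17.1% of all genes, and for 3 in *Rreb1*+/+ embryos (*Isl1*, *Mef2c* and *Pmp22*), against 15.0%. These 3 genes did so in both genotypes, as did 8.15% of all genes. *Mef2c* had the widest step, 2.29 on the log2 scale in *Rreb1*-/- and 1.37 in *Rreb1*+/+ embryos. *Isl1* differed by 1.30 in *Rreb1*-/- and 0.44 in *Rreb1*+/+ embryos, and *Pmp22* by 1.28 in *Rreb1*-/- and 0.57 in *Rreb1*+/+ embryos. *Foxf1* differed by 0.70 among mutants and by −0.00 among wild-type embryos.

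Markers of other tissues moved with the sets. Summed over the 8 blood markers (globins, *Gata1*, *Klf1*, *Gfi1b* and *Alas2*), the level was 413 to 519 in *Rreb1*-/- and 1266 to 1833 in *Rreb1*+/+ embryos of replicates 2 to 4, and 2979 to 3225 in *Rreb1*-/- and 8404 to 12702 in *Rreb1*+/+ embryos of replicates 5 and 6. The 10 primitive streak and nascent mesoderm markers, among them *T*, *Mixl1* and *Eomes*, summed to 14938 to 17677 in *Rreb1*-/- and 10877 to 15435 in *Rreb1*+/+ embryos of replicates 2 to 4, and to 3865 to 5373 in *Rreb1*-/- and 4117 to 4386 in *Rreb1*+/+ embryos of replicates 5 and 6. In replicates 2 to 4 *Eomes*, also a trophoblast gene, weighed much in that sum, at 4549 to 5858 in *Rreb1*-/- and 1560 to 1928 in *Rreb1*+/+ embryos. There *T* (−0.40), *Wnt3a* (−1.29) and *Fgf8* (−0.05) had negative estimates and the other streak markers positive ones. The 8 endothelial markers summed to 4949 to 7449 in *Rreb1*-/- and 4812 to 6083 in *Rreb1*+/+ embryos of replicates 2 to 4, and to 8593 to 9312 in *Rreb1*-/- and 10103 to 11419 in *Rreb1*+/+ embryos of replicates 5 and 6. Their median log2 fold change was −0.78 in replicates 2 to 4 and −0.16 in replicates 5 and 6. In replicates 2 to 4 only the abundant *Kdr* (0.44) and *Flt1* (0.51) had positive estimates, and these weigh most in the sums. Over all embryos 0 genes of these 3 lists were called between the genotypes. Of the 8 visceral endoderm markers 2, *Afp* (−1.32, limma adjusted p = 0.0157) and *Apoa4* (−1.21, limma adjusted p = 0.0339), were called lower in *Rreb1*-/- embryos, where 1.15% of all genes were. Within replicates 2 to 4 fitted alone, 1.41% of all genes were called lower and 2.18% higher. Of the 8 blood markers, *Hba-x*, *Hbb-y* and *Hba-a1* fell below the filter in that fit and were not tested. Called lower were 4 of the rest, *Hbb-bh1*, an embryonic globin (−4.08, limma adjusted p = 0.00239), *Gfi1b* (−2.18, 0.00577), *Klf1* (−2.48, 0.0132) and *Gata1* (−0.82, 0.0213). In the same fit 1 of the 8 endothelial markers, *Tal1* (−0.77, 0.0126), was called lower and 2 of the 10 streak markers, *Eomes* (1.57, 0.00239) and *Wnt3* (1.19, 0.0479), higher. Within replicates 5 and 6 fitted alone, where 0.134% of all genes were called lower, the embryonic globins *Hbb-bh1* (−2.10, limma adjusted p = 0.0182) and *Hba-x* (−5.01, 0.00760) were called lower. In that fit 0 genes of the endothelial and streak lists were called, and *Lefty2* of the streak list fell below the filter. *Afp* was called lower in both sets (−1.75, limma adjusted p = 0.00641, in replicates 2 to 4 and −0.67, limma adjusted p = 0.0484, in replicates 5 and 6). Summed blood markers were below those of wild-type embryos in the mutants of both sets. In replicates 5 and 6 most of that sum was *Hbb-bh1*. The blood factors *Gata1*, *Klf1* and *Gfi1b* were at −0.24, −0.30 and −0.35 there and were not called (limma adjusted p = 0.554, 0.629 and 0.600). The 8 epiblast markers summed to 39951 to 58580 in *Rreb1*-/- and 38731 to 57275 in *Rreb1*+/+ embryos of replicates 2 to 4. In replicates 5 and 6 they summed to 17862 to 21928 and 23016 to 24211, in the same order. The 8 markers of extraembryonic ectoderm and trophoblast summed to 19556 to 23240 and 15897 to 22150 in replicates 2 to 4. In replicates 5 and 6 these summed to 14980 to 15066 and 14955 to 17656. The part of all these tissues in the values of the 10 genes was not tested. The authors describe the mutants as smaller than their littermates from E7.5 and as delayed by morphology and somite number. A difference in stage cannot be told apart from genotype in these embryos, and its part was not tested.

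Mutants varied more than wild-type embryos, which is given as a description without a test. The SD of the log2 values was larger in *Rreb1*-/- than in *Rreb1*+/+ embryos for 10 of the 10 genes, against 67.5% of all genes. It was 0.27 in *Rreb1*-/- and 0.05 in *Rreb1*+/+ embryos for *Bmp4*, and 0.46 in *Rreb1*-/- and 0.08 in *Rreb1*+/+ embryos for *Foxf1*. For *Msx1* it was 0.35 in *Rreb1*-/- and 0.10 in *Rreb1*+/+ embryos, and for *Isl1* 0.77 in *Rreb1*-/- and 0.26 in *Rreb1*+/+ embryos. *Rreb1*-/- replicate 4 was the lowest mutant for 9 of the 10 genes (all but *Mef2c*), against 15.6% of all genes, and the lowest of all 10 embryos for 7, against 9.52%. Without it the SD was still larger in mutants for 9 of the 10 genes, all but *Msx2*, against 67.2% of all genes. Within replicates 2 to 4, where the step between sets plays no part, it was larger in mutants for 9 of the 10, all but *Mef2c*, against 57.8% of all genes. The first of these checks keeps the step between sets and the second keeps mutant replicate 4, so neither leaves out both. Y-linked counts also differed among the mutants, with replicate 2 low and the others high, while all wild-type embryos were low. The part of each in the spread was not tested.

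**Figure D3:**
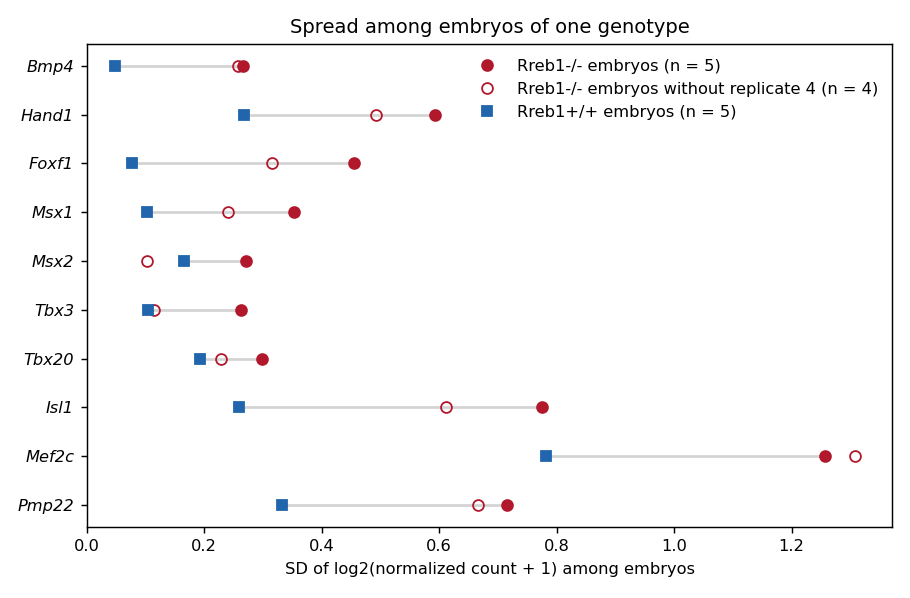
SD of log2(normalized count + 1) among *Rreb1*-/- embryos (red circles, open without replicate 4) and *Rreb1*+/+ embryos (blue squares) for each gene. The filled red circle is to the right of the blue square for all 10 genes, and the open circle for all but *Msx2*.

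The patterns of the 10 genes over the 10 embryos were graded, without a clean split into groups. *Isl1* and *Pmp22* (Pearson r = 0.97), *Mef2c* and *Pmp22* (0.97) and *Isl1* and *Mef2c* (0.90) were most alike, with *Hand1* close to *Isl1* (0.90), *Foxf1* (0.89) and *Pmp22* (0.86). *Bmp4*, *Msx1* and *Msx2* were also alike, with r of 0.78 for *Bmp4* and *Msx1*, 0.72 for *Bmp4* and *Msx2* and 0.70 for *Msx1* and *Msx2*. Pairs that joined one of these 3 to *Isl1*, *Pmp22*, *Mef2c*, *Hand1* or *Foxf1* ran from −0.26 for *Msx2* and *Mef2c* to 0.75 for *Msx1* and *Foxf1*, with *Msx1* and *Hand1* at 0.65. *Tbx20* was nearest to *Isl1* (0.80) and *Pmp22* (0.75), and *Tbx3* to *Msx1* (0.68) and *Foxf1* (0.64). Of the 45 pairs, 42 had r above 0 and 9 above 0.8, with a median of 0.52. These are descriptions over 10 embryos that share the step between replicate sets and the low mutant replicate 4.

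**Figure D4:**
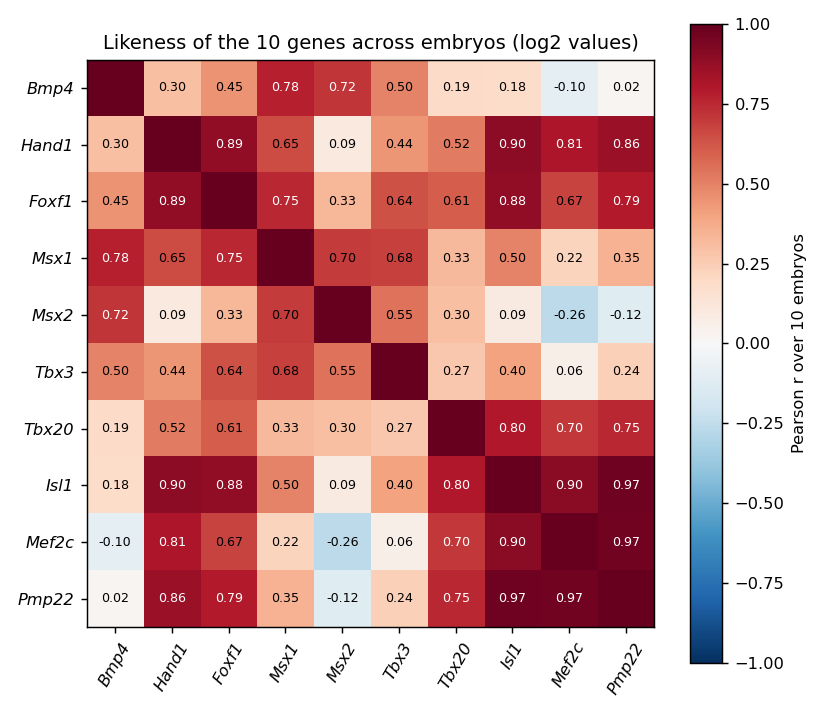
Pearson r between each pair of the 10 genes over the log2 values of the 10 embryos, from −1 (blue) to 1 (red). *Isl1*, *Mef2c*, *Pmp22*, *Hand1* and *Foxf1* are alike (0.67 to 0.97), as are *Bmp4*, *Msx1* and *Msx2* (0.70 to 0.78), and *Msx1* is also close to *Foxf1* (0.75).

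Outside the 10 genes, the tested gene most like their mean standardised log2 level was *Tspan9*, a tetraspanin (r = 0.94 over 10 embryos), followed by *Eng*, the TGF-β and BMP co-receptor endoglin (0.93), *Pklr*, *Tspan4*, *Crb2*, *Limch1*, *Gpr83*, *Pja1*, *Aebp1* and *Tmem140* (0.91 to 0.93). By single gene the nearest were *Btd* for *Bmp4* (0.94), *Prodh2* for *Msx1* (0.95), *Pik3ip1* for *Msx2* (0.96), *Adprh* for *Hand1* (0.98), *Aebp1* for *Foxf1* (0.97), *Ado* for *Tbx3* (0.94), *Clmp* for *Tbx20* (0.95), *Foxf2* for *Isl1* (0.98), *Adam12* for *Mef2c* (0.99) and *Gata5* for *Pmp22* (0.99). None of these genes was called between the genotypes.

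To compare levels between genes, mean normalized counts were divided by the length of all annotated exons in kilobases. In *Rreb1*-/- embryos *Hand1* was highest with 2363 ± 931 normalized counts per kb, then *Pmp22* (1086 ± 540), *Msx1* (719 ± 169), *Bmp4* (691 ± 132), *Foxf1* (511 ± 151), *Msx2* (439.6 ± 75.1), *Tbx3* (377 ± 63.0), *Tbx20* (164 ± 33.7), *Isl1* (88.5 ± 45.1) and *Mef2c* (18.2 ± 15.3). In *Rreb1*+/+ embryos the order was the same except that *Tbx3* (374 ± 27.0) stood before *Msx2* (343 ± 38.4), and *Hand1* reached 2442 ± 494 and *Mef2c* 20.3 ± 10.8 per kb. Among wild-type neighbours in that order, *Msx1* (621 ± 42.5) and *Bmp4* (571 ± 19.3), and *Tbx3* and *Msx2*, overlapped within 1 SD, and the others did not.

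By the annotation (GRCm38), *Hand1* (57828705 to 57832818) and *Pmp22* (63128982 to 63159547) lie on chromosome 11, *Msx1* (37820485 to 37824583) and *Tbx3* (119670669 to 119684724) on chromosome 5, *Bmp4* (46383520 to 46390669) on 14, *Foxf1* (121084386 to 121088144) on 8 and *Tbx20* (24718138 to 24774303) on 9. *Msx2* (53466884 to 53473074), *Mef2c* (83504034 to 83667080) and *Isl1* (116298281 to 116309689) share chromosome 13 with *Rreb1*, at 15.5, 45.6 and 78.3 Mb from it. Within 20 Mb of *Rreb1*, the window that holds *Msx2*, 4.95% of 222 tested genes were called, against 4.25% of the genes elsewhere.

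The bases just before the start of transcription are shown for *Isl1*, *Mef2c* and *Pmp22*, since these 3 genes moved most alike across the embryos. They come from RefSeq (GRCm38.p6), run 5′ to 3′ on the strand of the gene from base 250 to base 11 before the start, and capitals mark GGCGCC or, on either strand, the SMAD box CAGAC, both known as letters that SMAD proteins bind. For *Mef2c* and *Pmp22* the most upstream of several starts is shown.
Isl1 (chr13:116309699-116309938, minus strand): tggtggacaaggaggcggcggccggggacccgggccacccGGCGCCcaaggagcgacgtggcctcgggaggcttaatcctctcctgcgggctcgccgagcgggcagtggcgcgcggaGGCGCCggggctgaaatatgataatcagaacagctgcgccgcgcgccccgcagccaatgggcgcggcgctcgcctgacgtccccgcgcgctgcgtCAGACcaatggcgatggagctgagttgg
Mef2c (chr13:83503784-83504023, plus strand): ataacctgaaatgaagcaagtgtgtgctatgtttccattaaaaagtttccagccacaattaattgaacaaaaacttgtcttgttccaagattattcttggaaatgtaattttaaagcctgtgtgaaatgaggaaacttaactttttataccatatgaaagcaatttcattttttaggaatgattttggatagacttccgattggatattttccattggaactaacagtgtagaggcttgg
Pmp22 (chr11:63128732-63128971, plus strand): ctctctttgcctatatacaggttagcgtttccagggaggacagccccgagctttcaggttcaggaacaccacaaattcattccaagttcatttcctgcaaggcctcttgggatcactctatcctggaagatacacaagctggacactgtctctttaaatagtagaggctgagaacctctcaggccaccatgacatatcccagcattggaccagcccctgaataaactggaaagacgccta
Over all 250 bases before the start, GC was 71.2% for *Isl1*, 33.6% for *Mef2c* and 48.8% for *Pmp22*. The *Isl1* stretch held GGCGCC at 2 places and CAGAC at 1, while that of *Mef2c* and that of *Pmp22* held neither. The second of the *Pmp22* starts had GGCGCC at 71 bases and the SMAD box, on the other strand, at 82 bases before it.

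Promoter entries were matched for 7 of the 10 genes (12 entries, since *Mef2c* and *Pmp22* have several starts), and those of *Hand1*, *Foxf1* and *Tbx3* were not among the sequences used. By the annotation, all 250 searched bases of the *Msx2* entry lie in exons of *Msx2* itself. The same holds for 129 bases of 1 *Pmp22* entry, 80 of 1 *Mef2c* entry and 1 of the *Isl1* entry. Searched over 250 bases on both strands, GGCGCC was found in 2 of the 7 (*Isl1* and *Pmp22*), against 9.59% of 32817 promoters of the same length. CAGAC was found in 4 of the 7 (also in *Mef2c* and *Tbx20*), against 42.2%, and CCCCAAAC, letters from the binding matrix of human RREB1, in 0 of the 7, against 1.58%. The motifs do not overlap each other in the stretches shown, genes with several starts had more chances of a match, and the shares compare single entries with genes.

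Of the BMP pathway genes other than *Bmp4* and the *Msx* genes, 1 passed the test. Of 31 listed, 30 were tested, and 1 was called higher in *Rreb1*-/- embryos and 0 lower, where 3.11% and 1.15% of all genes were. Their median log2 fold change was 0.05. The one called was *Twsg1*, a secreted BMP-binding protein, at 3680.1, 3599, 3566, 3135 and 3316 in *Rreb1*-/- replicates 2 to 6, against 2827, 2846, 2713, 2952 and 2794 in *Rreb1*+/+ embryos. Every mutant was above every wild-type embryo, where 6.70% of all genes did not overlap in either direction. The log2 fold change was 0.29 ± 0.06 (SE, n = 5 each, limma adjusted p = 0.0155). It was called in 21 of 23 alternatives, the exceptions being the fit with the Y-linked sum (0.39, limma adjusted p = 0.116) and replicates 5 and 6 alone (0.17, limma adjusted p = 0.546). Twisted gastrulation is known both to help chordin hold BMP ligands and to favour their release.

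The other BMP genes did not pass over all embryos, and their limma adjusted p-values are given in parentheses. Among ligands *Bmp2* had a log2 fold change of 0.22 (0.330), *Bmp6* 0.22 (0.442) and *Bmp7* −0.11 (0.633), and *Bmp10* was not analysed here. Among receptors *Bmpr1b* had 0.47 (0.256), *Bmpr1a* 0.09 (0.536) and *Acvr2b* −0.34 (0.548). Of the SMADs that carry the signal, *Smad9* had 0.25 (0.316), *Smad1* 0.18 (0.346) and *Smad5* −0.07 (0.626). The inhibitors *Bambi*, a decoy receptor, and *Smad7* had 0.24 (0.343) and 0.17 (0.566), and the immediate targets *Id2*, *Id1* and *Id3* had 0.25 (0.266), −0.14 (0.769) and −0.16 (0.772). *Cer1*, a secreted inhibitor of BMP and Nodal made by the anterior visceral endoderm and early endoderm, was at 3146, 2687, 2714, 378 and 429.8 in *Rreb1*-/- replicates 2 to 6, against 1311, 1457, 1821, 432 and 447 in *Rreb1*+/+ embryos. It was called higher within replicates 2 to 4 fitted alone (0.91, limma adjusted p = 0.0150), as was *Twsg1* (0.37, 0.0385), where 2.18% of all genes were called higher. Over all embryos *Cer1* was not called (0.49, limma adjusted p = 0.758), and its interaction with the replicate set, −1.03, was not called (limma adjusted p = 0.183). The 4 *Id* genes had a median of −0.24 in replicates 2 to 4 and 0.25 in replicates 5 and 6, and 0 of them were called in either set. In replicates 2 to 4 *Id1*, *Id3* and *Id4* had negative estimates and *Id2* a positive one (0.15).

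Further mesoderm genes, all of them detected above the filter, were compared in the same way, although RNA of whole embryos does not say which tissue a transcript came from. Of 13 cardiac mesoderm genes 0 were called over all embryos, with a median log2 fold change of −0.10 over all embryos, −0.36 in replicates 2 to 4 and 0.36 in replicates 5 and 6. Within replicates 2 to 4 fitted alone 3 of the 13 were called lower, against 1.41% of all genes, and 0 within replicates 5 and 6. *Nkx2-5* fell below the filter in replicates 2 to 4 alone and was not tested there. The other 3 are named next. Called lower in replicates 2 to 4 were *Actc1*, cardiac actin (−1.01, limma adjusted p = 0.0263), *Tnnt2*, cardiac troponin T (−1.55, 0.0302), and *Smarcd3*, a chromatin remodelling subunit of early heart progenitors (−0.88, 0.0386). Their interactions with the replicate set, 0.83, 1.96 and 1.30 in that order, were not called (limma adjusted p = 0.623, 0.190 and 0.150). Over all embryos those with the smallest p were *Fgf10*, a ligand of the second heart field (0.63, limma adjusted p = 0.0840), *Actc1* (−0.68, 0.396) and *Myl4*, an atrial light chain (0.76, 0.551). Of 14 genes of the allantois and extraembryonic mesoderm 0 were called over all embryos, and 1, *Vim*, within replicates 2 to 4, where 1.41% of all genes were called lower. The medians were −0.37 over all embryos, −0.72 in replicates 2 to 4 and 0.15 in replicates 5 and 6. *Vim*, the mesenchymal intermediate filament protein, was at 2418, 2816, 2289, 5085 and 5659.8 in *Rreb1*-/- replicates 2 to 6, against 4462, 5255, 4992, 5302 and 5353 in *Rreb1*+/+ embryos. Mutant replicates 2 to 4 were thus below every wild-type embryo and mutant replicate 6 above all of them. *Vim* was called lower within replicates 2 to 4 fitted alone (−0.97, limma adjusted p = 0.00569) and not over all embryos (−0.58, limma adjusted p = 0.236), and its interaction with the replicate set was 0.98 (limma adjusted p = 0.0856). *Tgfbi* (−0.35, 0.312) and *Hoxa11* (−0.94, 0.530) followed.

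Of 6 tested relatives of the MEF2 and T-box members 0 were called between genotypes over all embryos. Within replicates 2 to 4 fitted alone *Tbx1* was called lower (−2.38, limma adjusted p = 0.0207) and *Eomes* higher (1.57, limma adjusted p = 0.00239). In that fit 1.41% of all genes were called lower and 2.18% higher. *Tbx6*, of the paraxial mesoderm, had −0.85 (limma adjusted p = 0.110), *Tbx1* −1.63 (0.361) and *Mef2d* −0.12 (0.470) over all embryos. *Eomes*, the T-box factor of the early streak and of trophoblast, was at 5858, 4821, 4549, 747 and 642 in *Rreb1*-/- replicates 2 to 6, against 1560.03, 1623, 1928, 720.2 and 758 in *Rreb1*+/+ embryos. Mutants of replicates 2 to 4 were above all wild-type embryos, while replicates 5 and 6 were low in both genotypes. It was called for an interaction with the replicate set, as were 0.0449% of all genes. The estimate was −1.67 on the log2 scale (limma adjusted p = 0.0316), of the opposite sign to the 10 mesoderm regulators. The call was lost when *Rreb1*-/- replicate 5 or 6 or *Rreb1*+/+ replicate 3, 5 or 6 was left out, with estimates of −1.78 to −1.56 over all 10 embryos left out in turn (limma adjusted p = 0.0357 to 0.203). *T* was counted with the streak markers, and *Mef2b* was not analysed here.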

How the data were processed

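RNA from single E7.5 embryos was made into stranded libraries of polyadenylated RNA and sequenced in paired ends. The authors aligned the reads with STAR, counted them per gene with HTSeq and divided the counts by 1 DESeq size factor per embryo, and this deposited signal is called a normalized count. Not given in the sources used here are the versions, the genome build, the gene models and the strand setting of the counting. In every embryo 100% of the values were whole multiples of 1 step (tolerance 0.1 read), which gave back the reads used for the depth, edgeR 4.0.16 and DESeq2 1.42.0.

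The filter kept genes whose mean reached 15 in either genotype. Limma 3.58.1 (R 4.3.3, variance following the mean) was run on log2 values with a pseudocount of 1, p-values were adjusted over 15603 genes (Benjamini-Hochberg), and calls were made under 0.05. The scale understates the fold changes of low genes. Single genes were also compared by exact two-sided permutation over 252 arrangements. Embryos are separate samples, but their litters are not given. Same-numbered embryos of both genotypes deviated together in all 5 pairs (r = 0.253 to 0.459), and only 3 of 10 embryos were most like their own number. The step between replicate sets was left in these values and is shared within a set, so they do not show pairing by number. The number was still tried as a block. Alternatives were TMM factors, quantile normalization, other pseudocounts (0.5 and 5) and filters (none, and 50), the Y-linked sum or the replicate set as a covariate, each replicate set alone and leaving out each embryo. The contrast within a set from the fit over all embryos, and the ratio of genotype means, were added after the values were seen. The procedure was also run on simulated counts. These held no step between replicate sets, so they do not give its power in these embryos.

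The 10 genes, the replicate sets and the lists were chosen with earlier results of these data known. Named beside the 10 were the called genes of each list, otherwise up to 3 with the smallest p, genes called within a replicate set (chosen after their values were seen), and the genes most correlated with the 10 or with each of them. Positions and exon lengths came from GENCODE M21 (GRCm38), matched by identifier for all 10, and promoters from RefSeq (GRCm38.p6), matched by symbol. Since the build used for counting is not known, exon lengths may differ from those counted.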

Additional observations from a re-analysis of the deposited data

Results flagged for a closer look

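*Hand1* in *Rreb1*+/+ replicate 6 was at 6579.96 normalized counts, far from the other wild-type embryos (4041 to 4703). Its gap to the nearest of them was 0.739 of the whole range, above the limit of 0.71 for 5 values. This was 1 of 20 groups of 5 examined, and chance gives about 1 in 20.

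For *Isl1*, *Mef2c* and *Pmp22*, mutants were below wild-type embryos without overlap in replicates 2 to 4 and above them without overlap in replicates 5 and 6. The difference between both genotype effects was 0.86, 0.92 and 0.70 on the log2 scale for these genes. Its test as an interaction term did not pass (limma adjusted p = 0.747, 0.520 and 0.382).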

How the results depend on the processing

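With the replicate block 0 of the 10 genes were called higher and 0 lower, as without it, and the block changed no other call of a member. Leaving out embryos moved the count called higher between 0 and 1 (*Msx2*, without *Rreb1*-/- replicate 4) and likewise the count without overlap between 0 and 1. Within replicates 2 to 4, 0 of the 10 were called lower when these were fitted alone and 2 by the contrast of the fit over all embryos, and the cause was not tested. No other alternative changed a count of calls among the 10. Estimates near 0 changed sign. *Tbx3* was at 0.015 by edgeR, 0.013 by DESeq2, 0.0093 after quantile normalization, 0.12 when fitted with the Y-linked sum and 0.012 as the ratio of genotype means. *Foxf1* was at 0.032 by edgeR, 0.030 by DESeq2 and 0.029 as the ratio of means. In replicates 5 and 6 alone, *Hand1* was at 0.26, *Foxf1* at 0.39, *Tbx3* at 0.042, *Isl1* at 0.37, *Mef2c* at 0.13 and *Pmp22* at 0.19. Leaving out each embryo gave −0.29 to 0.063 for *Hand1*, −0.14 to 0.14 for *Foxf1*, −0.064 to 0.11 for *Tbx3*, −0.36 to 0.11 for *Isl1*, −0.78 to −0.17 for *Mef2c*, −0.43 to −0.045 for *Pmp22*, 0.011 to 0.21 for *Tbx20*, 0.081 to 0.31 for *Msx1*, 0.16 to 0.32 for *Bmp4* and 0.29 to 0.46 for *Msx2*. TMM factors moved the median of all genes by 0.00. The lowest count of the 10 genes in an embryo was 101 reads. The causes of these changes were not tested.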
